A study of Mus musculus with 24 samples.

Results

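The genes described are the REV-ERB loop of the circadian clock with the BMAL1 and CLOCK dimer that it feeds back on. They are the 7 genes Nr1d1, Nr1d2, Rora, Arntl, Clock, Npas2 and Nfil3, picked by name from the 16604 genes of an RNA-seq table of EMS404 cells. EMS404 is an SV40-immortalised mouse hepatic stellate cell line from C57Bl6 liver that expresses human TLR4, and every group carries this background. No label says whether it is 1 clone. The 24 libraries form 8 groups of 3: CLK8 with TGFb, SR9011 with TGFb, SB431542 with TGFb, TGFb, CLK8, SR9011, SB431542 and vehicle (DMSO by its library name, called untreated in its title). SR9011 is a REV-ERB agonist, CLK8 disturbs the pairing of CLOCK with BMAL1, and SB431542 inhibits the TGFb receptor. Compounds were given for 24 h and then, in the groups with TGFb, for 24 h more together with TGFb at 10 ng/mL. The labels give neither the compound doses nor whether groups without TGFb were kept for the added 24 h, so TGFb and time in culture cannot be told apart. Each group was sampled at a single time, so a changed level and a shifted phase of a rhythm cannot be told apart either.

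In the mammalian clock, BMAL1 (gene Arntl) pairs with CLOCK or its relative NPAS2 and switches on genes that carry E-boxes, among them Nr1d1 and Nr1d2. Those genes code for the nuclear receptors REV-ERBalpha and REV-ERBbeta, which sit on REV-ERB/ROR response elements (RREs) and repress Arntl, Npas2, Clock and Nfil3 through the NCoR-HDAC3 corepressor. RORalpha, the product of Rora, binds the same elements and activates. NFIL3, itself made under RRE control, represses genes that carry D-boxes. In the liver this loop ties the clock to lipid and bile acid metabolism, and ligands of REV-ERB have been tested on stellate cells as a brake on their activation.

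The promoter windows of Arntl and Nfil3 are shown because RNA of both genes rose with TGFb and both windows hold an extended RRE. Sequences are from RefSeq on GRCm38.p6 and run 5′ to 3′ on the gene's strand, from 250 bases before the start site to 50 from it on. Capitals mark the Bmal1-type RRE, whose 11 letters are those in capitals in Arntl with any base as the last but one, and AGTAGGTCA, a shorter core, on either strand. Both motifs were chosen after the windows had been read. They overlap where the longer one ends in TCA.
Arntl, chr7:113207261-113207560, plus strand: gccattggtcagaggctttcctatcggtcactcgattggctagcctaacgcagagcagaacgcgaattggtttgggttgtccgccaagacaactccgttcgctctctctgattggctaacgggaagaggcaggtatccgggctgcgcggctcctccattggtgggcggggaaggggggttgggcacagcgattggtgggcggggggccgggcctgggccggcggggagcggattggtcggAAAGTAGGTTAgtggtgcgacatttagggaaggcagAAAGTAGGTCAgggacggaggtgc
Nfil3, chr13:52980990-52981289, minus strand: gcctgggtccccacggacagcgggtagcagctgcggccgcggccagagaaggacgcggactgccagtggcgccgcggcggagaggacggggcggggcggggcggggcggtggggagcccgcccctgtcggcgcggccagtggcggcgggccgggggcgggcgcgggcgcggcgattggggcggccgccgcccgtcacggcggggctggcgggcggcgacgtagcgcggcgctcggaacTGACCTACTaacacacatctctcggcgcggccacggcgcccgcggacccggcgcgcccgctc

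All 7 genes had at least 1 such window, Clock having 3 and Arntl 2. With the start site as base 0, the pair of elements in the Arntl window shown ran from -10 to 0 and from 26 to 36. The core in Nfil3 lay on the opposite strand from -12 to -4. Of the 2 Arntl windows, the one with more of these elements was shown. The other, 113207215 to 113207514, held a Bmal1-type RRE from 36 to 46, so the positions depend on the start site used. The Bmal1-type RRE was in 0.0609% and AGTAGGTCA in 0.192% of all 32851 windows of 300 bases. The shorter hexamer AGGTCA was in 16.3% of windows, and among the 7 genes it was in a window of Arntl, Nfil3, Nr1d2 and Clock. The E-box CACGTG (7.15% of windows) and the D-box TTANGTAA (2.32%) were in none of these genes' windows, searched on both strands. This says only that those letters are not in these windows.

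Levels are FPKM, fragment counts scaled by transcript length and by library size. The relative depth of the libraries ranged from 0.9 to 1.07 by the smallest steps of 34 rarely detected genes, with 4 to 17 values per library. Only steps close to the smallest of a gene were kept, so a large difference in depth could not show. Read totals are unknown. Log2 fold changes are of FPKM + 1, so they understate the change of genes near 1 FPKM. A gene was called where its limma p, Benjamini-Hochberg adjusted over 11297 tested genes, was under 0.05. Of the 7 genes 6 were tested, since Npas2 reached 1 FPKM in none of the libraries. SR9011 replicate 1 stood apart. Its mean squared deviation from its group mean was 0.0192 over all tested genes, against 0.00346 to 0.0119 in the other 23 libraries. Results on the loop genes are therefore also given without it where it changes a call, and for some of the values it moves. List counts of SR9011 against vehicle are given without it too, where a count over a whole list is given. The other SR9011 libraries, at 0.0119 and 0.00925, came next, and libraries of other groups reached at most 0.00891. The model shares the spread over all groups, so the SE may be too small for the SR9011 group and too large elsewhere. Over alternatives other than leaving out a library, limma adjusted p for SR9011 against vehicle reached 0.0026 (Nr1d2), 0.00942 (Clock) and 0.0336 (Rora). Leaving out a library gave up to 0.0477 for Rora. Of the stellate cell markers, Col1a1, Col1a2, Acta2, Timp1, Hand2 and Pdgfrb were present in every library, whereas Des reached at most 0.39, Gfap 0.02 and Reln 0 FPKM. The defining markers Alb (hepatocytes), Cdh5 (endothelium) and Ptprc (leukocytes) reached at most 0.06 FPKM, and Epcam (cholangiocytes) 0.27 and Thy1 (portal fibroblasts) 0.15 FPKM. Other markers of those types were present, with Cd68 at 0.83 to 2.9, Krt7 at 0.84 to 7.27 and Fbln2 at 197 to 585 FPKM. The 9 stellate markers of the table summed to 3957 to 4530 FPKM with CLK8 and TGFb, 2185 to 2328 with SR9011 and TGFb, 2803 to 3048 with SB431542 and TGFb, 4679 to 5225 with TGFb, 2221 to 2275 with CLK8, 961 to 1116 with SR9011, 2362 to 2482 with SB431542 and 3121 to 3295 with vehicle. The 3 cholangiocyte markers summed to 2.22 to 3.6 FPKM with CLK8 and TGFb and 1.27 to 1.66 with SR9011 and TGFb, against 6.39 to 7.73 with TGFb, and to 2.52 to 3.23 with CLK8 and 1.78 to 2.11 with SR9011, against 7.62 to 9.89 with vehicle. The 3 portal fibroblast markers summed to 523 to 590 FPKM with TGFb, against 319 to 335 with vehicle. This sum is mostly Fbln2, since Eln reached at most 7.16 FPKM. The stellate sums are mostly Col1a1 (342 to 2617 FPKM) and Col1a2 (406 to 2065 FPKM). The 3 mesothelial markers Msln, Upk3b and Lrrn4 were all present. Their summed FPKM was 43.1 to 53.3 with CLK8 and TGFb, 54.6 to 69.0 with SR9011 and TGFb, 290 to 352 with SB431542 and TGFb, 128 to 137 with TGFb, 69.0 to 86.1 with CLK8, 53.6 to 83.1 with SR9011, 368 to 385 with SB431542 and 278 to 300 with vehicle. The part of these markers in the results below was not tested, and in bulk RNA fewer cells of a type and less RNA per cell cannot be told apart.

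With SR9011 against vehicle, 6 of the 6 tested genes were called, all higher, against 69.1% of all tested genes (40.7% higher and 28.3% lower), and their median log2 fold change was 0.43 against 0.06 over all genes. With SR9011 and TGFb against TGFb, 5 were called (4 higher and Nfil3 lower), against 60.8% (36.8% higher, 24% lower), and after scaling to TPM 3 were. With CLK8 against vehicle, 3 were called, all higher, against 43.9% (30.3% higher, 13.6% lower). With CLK8 and TGFb against TGFb, 3 were called, all higher, against 41.1% (27.7% higher, 13.3% lower).

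With SB431542 against vehicle, 3 were called (2 higher, 1 lower), against 16.9% (11.9% higher, 5.05% lower). With SB431542 and TGFb against TGFb, 3 were called (1 higher, 2 lower), against 59.7% (38.3% higher, 21.4% lower). With TGFb against vehicle, 3 were called, all higher, against 54.9% (20.5% higher, 34.4% lower). In CLK8-treated cells TGFb called 2, both higher, against 51.9% (17.3% higher, 34.6% lower), and in SR9011-treated cells 2 (1 higher, 1 lower), against 45.3% (14.3% higher, 31% lower). In SB431542-treated cells limma called 0 of 6, against 4.36% (2.01% higher, 2.35% lower), and 3 of 6 had an unadjusted limma p under 0.05. In most of these comparisons a large part of all genes was called, so being called does not set the loop apart. The comparisons against vehicle share the vehicle libraries, and those against TGFb share the TGFb libraries.

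**Figure D1:**
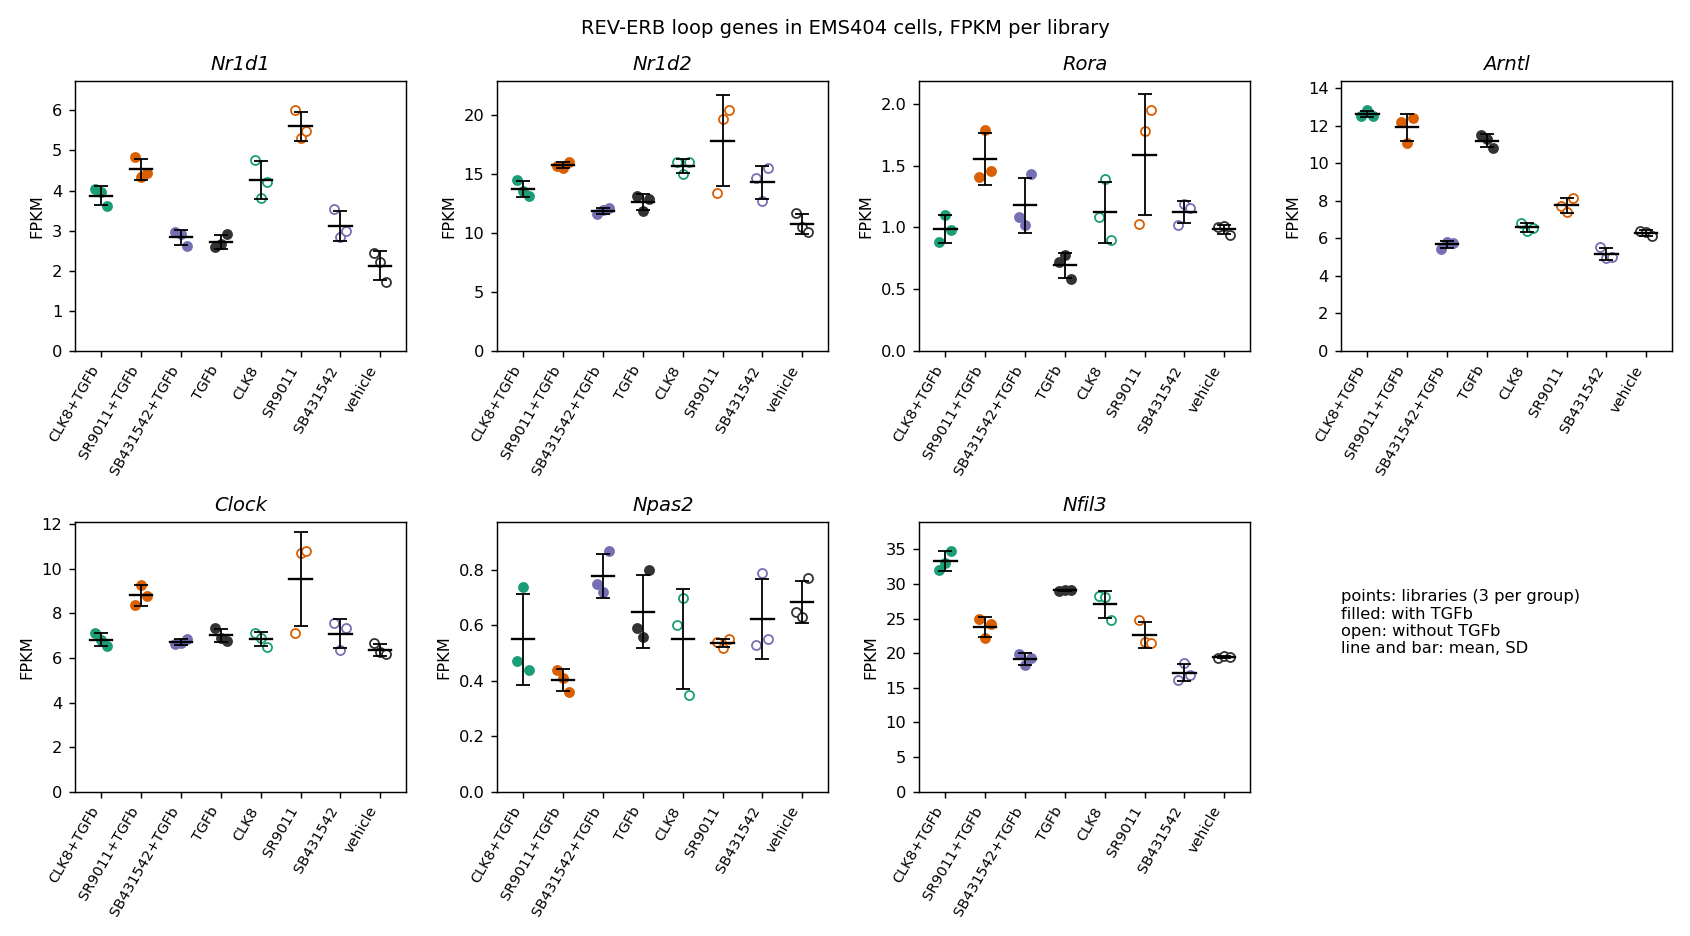
FPKM of the 7 genes in each library (points, 3 per group, filled with TGFb and open without), with the group mean and SD as a line and bar. Nr1d1 was highest with SR9011 and lowest with vehicle, Arntl and Nfil3 were highest with CLK8 and TGFb, and SR9011 replicate 1 was the low point of its group for Nr1d2, Rora and Clock.

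Nr1d1 (ENSMUSG00000020889, chromosome 11, 98767932 to 98775333 on mm10, minus strand, protein coding), the gene of REV-ERBalpha, rose with each of the 3 compounds. It had 6.01, 5.32 and 5.49 FPKM with SR9011, against 2.44, 2.21 and 1.73 FPKM with vehicle. It had 4.75, 3.81 and 4.22 FPKM with CLK8 and 3.55, 2.84 and 2.99 FPKM with SB431542. All 9 compound-treated libraries lay above the vehicle libraries. The log2 fold change against vehicle was 1.08 (SE 0.083, limma adjusted p = 6.62e-11) with SR9011, 0.75 (limma adjusted p = 1.21e-07) with CLK8 and 0.40 (limma adjusted p = 0.00121) with SB431542. A rise of the REV-ERB genes was thus measured with the agonist of their product, with the agent aimed at the dimer that drives them, and with the receptor inhibitor.

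Nr1d1 was also higher with TGFb than with vehicle, but by less. TGFb libraries had 2.58, 2.66 and 2.91 FPKM, all above the vehicle libraries (log2 0.25, SE 0.083, limma adjusted p = 0.012). This call was lost without TGFb replicate 3 (0.22, limma adjusted p = 0.0564) or vehicle replicate 3 (0.16, limma adjusted p = 0.117), and over all libraries left out in turn the limma adjusted p ranged from 0.00362 to 0.117. Under TGFb, SR9011 gave 4.83, 4.34 and 4.43 FPKM (log2 0.57 against TGFb, limma adjusted p = 2.57e-06) and CLK8 gave 4.04, 3.97 and 3.61 FPKM (0.39, limma adjusted p = 0.000597), all above the TGFb libraries. With SB431542 and TGFb it had 2.97, 2.91 and 2.62 FPKM, which overlapped TGFb (0.04, 95% interval -0.13 to 0.22). In cells that had SR9011, TGFb went with lower Nr1d1 (log2 -0.26, limma adjusted p = 0.0147), a call lost without SR9011 replicate 1 (-0.21, limma adjusted p = 0.0645), without SR9011+TGFb replicate 2 (-0.23, limma adjusted p = 0.0554), after scaling to TPM (limma adjusted p = 0.0663) and after quantile normalization (limma adjusted p = 0.0527). From low to high the groups ran vehicle, TGFb, SB431542+TGFb, SB431542, CLK8+TGFb, CLK8, SR9011+TGFb and SR9011. Of the 7 neighbouring pairs in that order, vehicle and TGFb, SB431542 and CLK8+TGFb, and SR9011+TGFb and SR9011 did not overlap.

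The 3′ end of Nr1d1 overlaps Thra, the gene of thyroid hormone receptor alpha on the opposite strand, by 1075 bases in GENCODE M21. No label states whether the libraries keep strand, so reads of this overlap cannot be assigned with certainty. Thra averaged 68.7 ± 4.24 FPKM with SR9011 and 85.6 ± 2.21 FPKM with CLK8, against 86.2 ± 2.75 FPKM with vehicle (SD, n = 3 each). It fell with SR9011 (log2 -0.32, limma adjusted p = 2.32e-05) and with TGFb against vehicle (-0.60, limma adjusted p = 5.45e-09), where Nr1d1 was higher, and with CLK8 it was not called (-0.01). In SR9011-treated cells TGFb went with lower Thra (-0.24, limma adjusted p = 0.00159) and lower Nr1d1 (-0.26) alike. No other member overlaps a gene of the table.

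Nr1d2 (ENSMUSG00000021775, chromosome 14, 18204054 to 18239127, minus strand), which codes for REV-ERBbeta, was at 10.1 to 20.4 FPKM over the 24 libraries and thus at several times the level of Nr1d1. It had 13.4, 19.7 and 20.4 FPKM with SR9011, against 11.7, 10.5 and 10.1 FPKM with vehicle. SR9011 replicate 1 was the low value, though still above vehicle. The log2 fold change was 0.66 (SE 0.099, limma adjusted p = 3.31e-06), and 0.84 without that library. CLK8 gave 16.0, 15.01 and 16.0 FPKM (log2 0.51, limma adjusted p = 0.000226) and SB431542 14.7, 12.7 and 15.5 FPKM (0.38, limma adjusted p = 0.00955), both above every vehicle library. The call with SB431542 was lost without SB431542 replicate 3 (0.32, limma adjusted p = 0.0619) or vehicle replicate 3 (0.34, limma adjusted p = 0.0521).

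Under TGFb the changes in Nr1d2 were smaller. SR9011 with TGFb had 15.7, 15.5 and 16.0 FPKM, against 13.1, 11.8 and 12.9 FPKM with TGFb (log2 0.30, limma adjusted p = 0.0112). That call was lost without TGFb replicate 2 (0.26, limma adjusted p = 0.0521), after scaling to TPM (0.22, limma adjusted p = 0.111) and after quantile normalization (0.20, limma adjusted p = 0.0544). CLK8 with TGFb (13.1 to 14.5 FPKM, log2 0.11, 95% interval -0.09 to 0.32) and SB431542 with TGFb (11.6 to 12.1 FPKM, -0.08, 95% interval -0.28 to 0.12) were not called. TGFb against vehicle was not called either (0.21, limma adjusted p = 0.0719), but it was without vehicle replicate 1 (0.27, limma adjusted p = 0.0446), after scaling to TPM (0.29), after quantile normalization (0.26) and in a fit of the 2 groups alone (limma adjusted p = 0.0109). In SR9011-treated cells TGFb gave a log2 difference of -0.14 (limma adjusted p = 0.242), and -0.33 (limma adjusted p = 0.000406) without SR9011 replicate 1. Of the 7 neighbouring pairs of groups ordered by level, only TGFb and CLK8+TGFb did not overlap.

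The ratio of the length-normalised levels of Nr1d2 to Nr1d1 was lower with either clock compound. It was 2.22 to 3.72 with SR9011 and 3.38 to 3.94 with CLK8, against 4.76 to 5.82 with vehicle, with no overlap. With TGFb added it was 3.25 to 3.62 with SR9011 and 3.42 to 3.64 with CLK8, against 4.44 to 5.08 with TGFb alone, again with no overlap. SR9011 replicate 1 was the low value of its group, and the other SR9011 libraries had 3.70 and 3.72. With SB431542 (4.14 to 5.17) it overlapped vehicle. This ratio was computed after the levels had been seen and is given with no test.

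Rora (ENSMUSG00000032238, chromosome 9, 68653786 to 69388246, plus strand), whose product opposes REV-ERB at shared elements, was close to the detection filter, at 0.58 to 1.95 FPKM. It rose with SR9011. The 3 libraries had 1.03, 1.78 and 1.95 FPKM with SR9011, against 1.0, 1.01 and 0.94 FPKM with vehicle (log2 0.36, SE 0.11, limma adjusted p = 0.0048), and SR9011 replicate 1 lay next to the vehicle libraries. Without that library the log2 fold change was 0.53. With TGFb the difference was clearer by library: 1.41, 1.79 and 1.46 FPKM with SR9011 and TGFb, against 0.72, 0.78 and 0.58 FPKM with TGFb (0.59, limma adjusted p = 5.69e-05). SB431542 with TGFb had 1.08, 1.02 and 1.43 FPKM, also above TGFb (0.36, limma adjusted p = 0.00659). That call was lost without SB431542+TGFb replicate 3 (0.28, limma adjusted p = 0.0511) and after quantile normalization (0.22, limma adjusted p = 0.0727).

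All 3 TGFb libraries had less Rora than any vehicle library, yet the comparison missed the threshold (log2 -0.23, 95% interval -0.45 to -0.005, limma adjusted p = 0.0768). It passed with a pseudocount of 0.1 (-0.46, limma adjusted p = 0.0395) and in a fit of the 2 groups alone (limma adjusted p = 0.0152). CLK8 was not called against vehicle (0.09, 95% interval -0.13 to 0.32) nor with TGFb against TGFb (0.23, limma adjusted p = 0.0924), though the comparison under TGFb passed in a fit of its 2 groups alone (limma adjusted p = 0.0276). In the order of levels, of 7 neighbouring pairs only TGFb, the lowest, and vehicle did not overlap.

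Arntl (ENSMUSG00000055116, chromosome 7, 113207465 to 113314126, plus strand), the gene of BMAL1, was higher with TGFb and lower with the inhibitor of its receptor. It had 11.5, 11.3 and 10.8 FPKM with TGFb, against 6.41, 6.36 and 6.13 FPKM with vehicle. Every TGFb library lay above every vehicle library by more than 4 FPKM (log2 0.74, SE 0.051, limma adjusted p = 2.41e-11). SB431542 with TGFb brought it to 5.45, 5.83 and 5.77 FPKM, under every vehicle and every TGFb library (log2 -0.87 against TGFb, limma adjusted p = 1.06e-12). SB431542 by itself gave 5.52, 4.97 and 5.01 FPKM, all under the vehicle libraries (-0.24, limma adjusted p = 0.00146). In cells with SB431542, adding TGFb moved Arntl by 0.12 (95% interval 0.01 to 0.22, limma adjusted p = 0.238).

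Arntl was also higher with TGFb in cells that had either clock compound. CLK8 with TGFb had 12.5, 12.9 and 12.6 FPKM, against 6.84, 6.37 and 6.56 FPKM with CLK8 (log2 0.85, limma adjusted p = 1.95e-12). SR9011 with TGFb had 12.2, 11.1 and 12.4 FPKM, against 7.75, 7.39 and 8.17 FPKM with SR9011 (0.56, limma adjusted p = 5.1e-09). Neither pair of groups overlapped.

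Without TGFb, the REV-ERB agonist went with more Arntl RNA. All 3 SR9011 libraries lay above vehicle (log2 0.26, SE 0.051, 95% interval 0.16 to 0.37, limma adjusted p = 8.45e-05), and the value was 0.26 without SR9011 replicate 1 as well. Under TGFb, SR9011 was not called (0.08, 95% interval -0.03 to 0.19). CLK8 was not called against vehicle (0.06, 95% interval -0.05 to 0.16). With TGFb it was slightly higher than TGFb alone (0.16, limma adjusted p = 0.0149), a call lost without CLK8+TGFb replicate 2 (0.15, limma adjusted p = 0.0511), without TGFb replicate 3 (0.14, limma adjusted p = 0.0657) and after quantile normalization (0.08, limma adjusted p = 0.185). From low to high the groups ran SB431542, SB431542+TGFb, vehicle, CLK8, SR9011, TGFb, SR9011+TGFb and CLK8+TGFb. Neighbours overlapped in 3 of the 7 pairs, namely SB431542 with SB431542+TGFb, vehicle with CLK8, and TGFb with SR9011+TGFb.

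**Figure D2:**
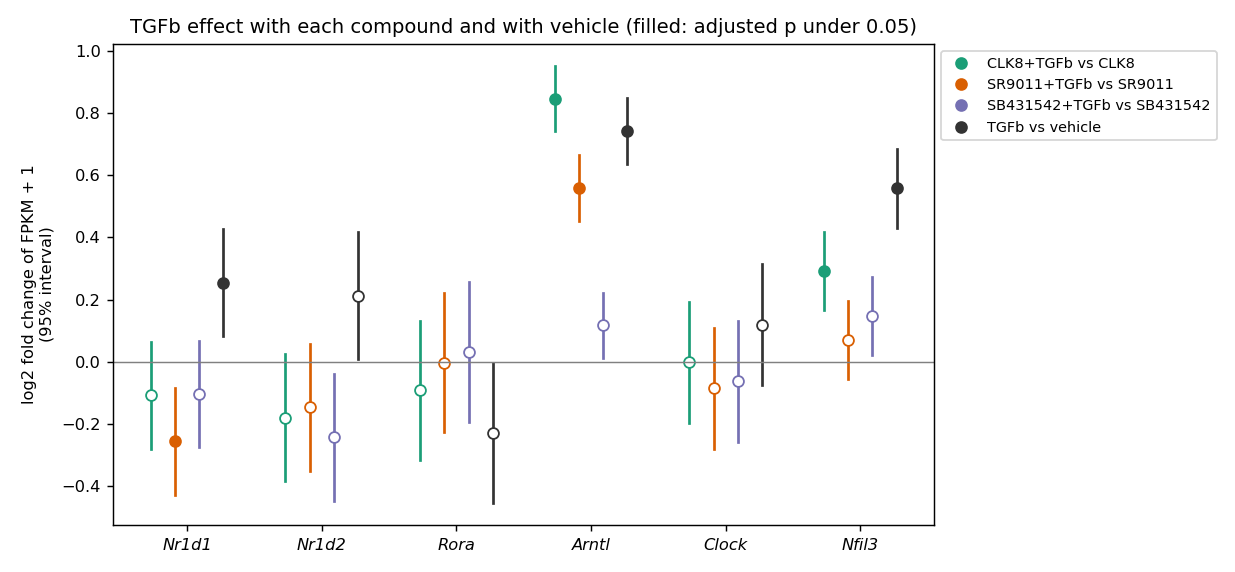
Log2 fold change of FPKM + 1 between cells with and without TGFb, for the 6 tested genes, in CLK8-treated, SR9011-treated, SB431542-treated and vehicle-treated cells (points, filled where the limma adjusted p was under 0.05, with 95% intervals). Arntl was called in 3 of the 4 settings and Nfil3 in 2, and none of the genes was called in SB431542-treated cells.

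Nfil3 (ENSMUSG00000056749, chromosome 13, 52967209 to 52981073, minus strand) was the most abundant member, at 16.1 to 34.8 FPKM. It had 29.0, 29.1 and 29.2 FPKM with TGFb, against 19.3, 19.6 and 19.5 FPKM with vehicle. The spread within both groups was under 1 FPKM, and the groups lay far apart (log2 0.56, SE 0.061, limma adjusted p = 5.49e-08). SB431542 with TGFb had 19.9, 18.3 and 19.3 FPKM, overlapping vehicle and below TGFb (-0.58 against TGFb, limma adjusted p = 2.26e-08). SB431542 alone, at 16.1, 18.6 and 16.9 FPKM, was not called against vehicle (-0.17, limma adjusted p = 0.0574). It was called without SB431542 replicate 2 (-0.23, limma adjusted p = 0.0203) and after quantile normalization (-0.21, limma adjusted p = 0.0265).

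Here the clock compounds differed in direction under TGFb. CLK8 with TGFb gave the highest values, 32.1, 33.1 and 34.8 FPKM, above TGFb (log2 0.19, limma adjusted p = 0.0161). That call was lost without CLK8+TGFb replicate 3 (0.16, limma adjusted p = 0.0786) and after quantile normalization (0.14, limma adjusted p = 0.0765). SR9011 with TGFb gave 24.9, 22.2 and 24.2 FPKM, below TGFb (-0.28, limma adjusted p = 0.00035). CLK8 and SR9011 were not tested against each other. Without TGFb both were higher than vehicle, CLK8 with 28.3, 28.1 and 24.8 FPKM (0.45, limma adjusted p = 2.24e-06) and SR9011 with 24.8, 21.7 and 21.4 FPKM (0.21, limma adjusted p = 0.00466). The call with SR9011 was lost after scaling to TPM (0.14, limma adjusted p = 0.0527) and after quantile normalization (0.10, limma adjusted p = 0.175). Without SR9011 replicate 1, the highest library of its group, the log2 fold change was 0.14 (limma adjusted p = 0.0421). In the order of levels, vehicle and SR9011, CLK8 and TGFb, and TGFb and CLK8+TGFb were the neighbours that did not overlap, out of 7 pairs.

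Clock (ENSMUSG00000029238, chromosome 5, 76209868 to 76304792, minus strand), which codes for BMAL1's main partner, stayed between 6.18 and 7.55 FPKM in the 18 libraries without SR9011. It had 7.12, 10.7 and 10.8 FPKM with SR9011, against 6.67, 6.27 and 6.18 FPKM with vehicle. SR9011 replicate 1 stood well below its fellows, and the log2 fold change was 0.50 (SE 0.094, limma adjusted p = 6.47e-05) with it and 0.67 without it. SR9011 with TGFb had 8.36, 9.29 and 8.78 FPKM, above TGFb at 7.36, 6.91 and 6.77 FPKM (0.29, limma adjusted p = 0.00999), a call lost after scaling to TPM (0.22, limma adjusted p = 0.101). In SR9011-treated cells TGFb gave a log2 difference of -0.09 that was not called (limma adjusted p = 0.49). Without SR9011 replicate 1 it was -0.26 (limma adjusted p = 0.00153). None of TGFb (0.12, 95% interval -0.07 to 0.31), CLK8 (0.09, -0.11 to 0.28) and SB431542 (0.13, -0.06 to 0.32) was called against vehicle. In the order of levels only SB431542 and SR9011+TGFb, among 7 neighbouring pairs, did not overlap.

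Npas2 (ENSMUSG00000026077, chromosome 1, 39193731 to 39363236, plus strand), the gene of a CLOCK relative that can replace it beside BMAL1, was at 0.35 to 0.87 FPKM. It had 0.44, 0.41 and 0.36 FPKM with SR9011 and TGFb, against 0.59, 0.56 and 0.80 FPKM with TGFb. These groups did not overlap. With no filter on low values, which tests 16547 genes, this was the comparison in which Npas2 was called (log2 -0.23, SE 0.083, limma adjusted p = 0.0286). In the other 12 comparisons the limma adjusted p without the filter was 0.21 or higher. In the order of levels, only the lowest groups, SR9011+TGFb and SR9011, did not overlap among 7 neighbouring pairs.

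The length-normalised level of Arntl relative to Clock followed TGFb. It was 1.75 to 1.92 with CLK8 and TGFb, 1.19 to 1.46 with SR9011 and TGFb and 0.823 to 0.873 with SB431542 and TGFb, against 1.56 to 1.64 with TGFb. It was 0.922 to 1.01 with CLK8, 0.691 to 1.09 with SR9011 and 0.681 to 0.784 with SB431542, against 0.961 to 1.01 with vehicle. With TGFb, CLK8 thus lay above and SR9011 below TGFb alone with no overlap, while without TGFb both overlapped vehicle. The overlap of SR9011 rests on its replicate 1 (1.09), and its other libraries, at 0.691 and 0.755, lay below vehicle. These are RNA ratios, computed after the levels had been seen, and carry no test.

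**Figure D3:**
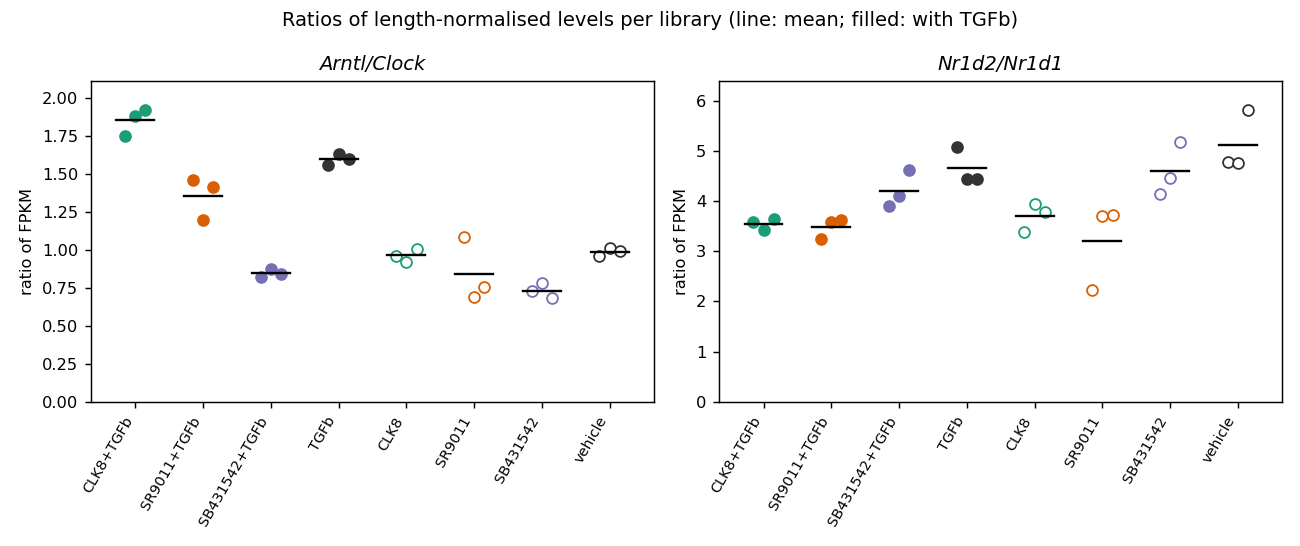
Ratio of FPKM of Arntl to Clock and of Nr1d2 to Nr1d1 in each library (points, 3 per group, filled with TGFb and open without; line, group mean). Arntl exceeded Clock in TGFb-treated cells unless SB431542 was present, and the 2 REV-ERB genes were nearer to each other with SR9011 or CLK8 than with vehicle.

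**Figure D4:**
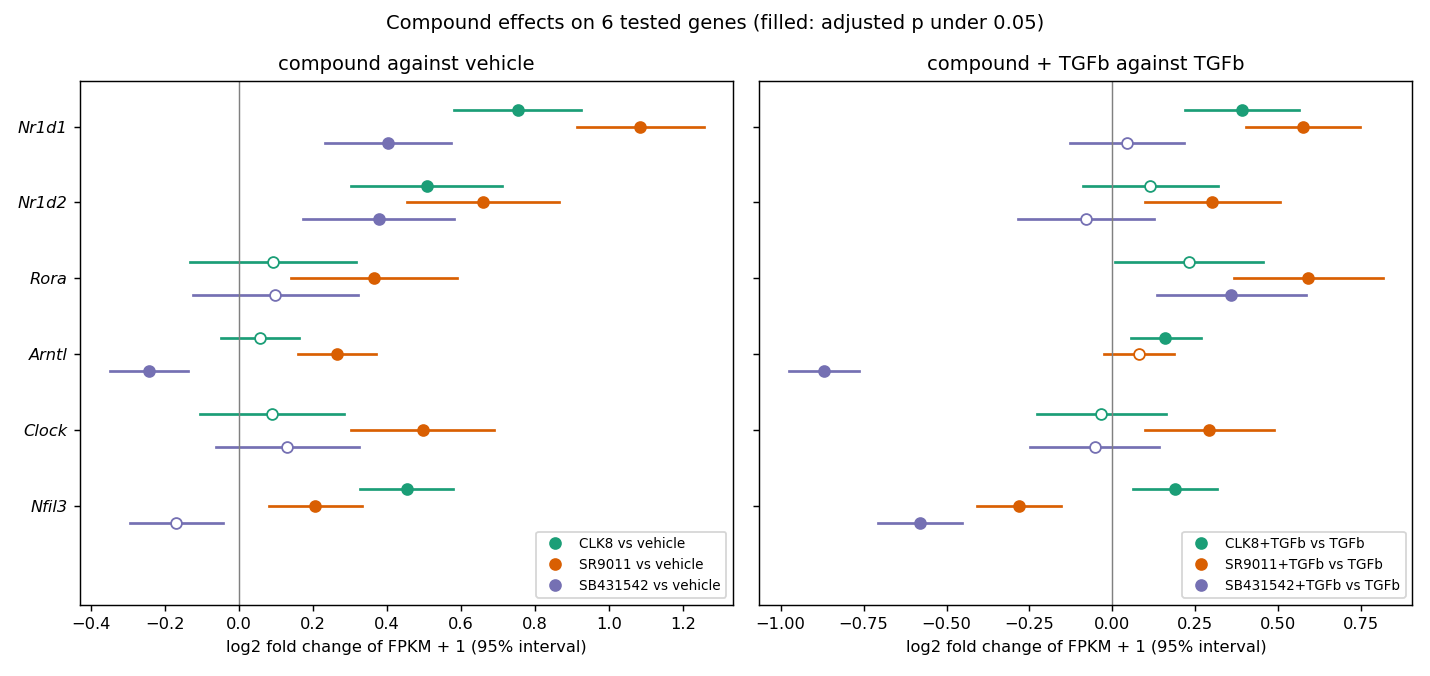
Log2 fold change of FPKM + 1 for the 6 tested genes with each compound against vehicle and with each compound and TGFb against TGFb (points, filled where the limma adjusted p was under 0.05, with 95% intervals). The x axes of the panels differ in range. Nr1d1 was called in 5 of the 6 comparisons, and SB431542 under TGFb gave the lowest values of Arntl and Nfil3.

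Whether the TGFb effect differed with a compound was tested by the interaction, the TGFb effect with the compound minus that with vehicle. With SB431542, 4 of 6 tested members were called, all lower, against 34.3% of all tested genes (21.5% higher, 12.8% lower): Arntl (-0.62, limma adjusted p = 4.23e-07), Nfil3 (-0.41, limma adjusted p = 0.000724), Nr1d2 (-0.46, limma adjusted p = 0.0142) and Nr1d1 (-0.36, limma adjusted p = 0.0205). The call of Nr1d1 was lost in 4 of 12 fits that left out a library, without TGFb replicate 3 (-0.32), vehicle replicate 3 (-0.26), SB431542+TGFb replicate 3 (-0.32) or SB431542 replicate 1 (-0.29), with limma adjusted p from 0.0531 to 0.0805. With SR9011, 2 were called, both lower, against 31.9% (16.6% higher, 15.3% lower): Nfil3 (-0.49, limma adjusted p = 0.000162) and Nr1d1 (-0.51, limma adjusted p = 0.00193).

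Arntl (-0.18, limma adjusted p = 0.0555) and Nr1d2 (-0.36, limma adjusted p = 0.0533) just missed the threshold of the interaction with SR9011. Without SR9011 replicate 1, Nr1d2 (-0.54, limma adjusted p = 9.3e-05) and Clock (-0.38, limma adjusted p = 0.00117; -0.20 and 0.257 with that library) were called. Nr1d2 was also called without TGFb replicate 2 (-0.40, limma adjusted p = 0.0472) or vehicle replicate 1 (-0.41, limma adjusted p = 0.0364), and Arntl without SR9011+TGFb replicate 3 (-0.21, limma adjusted p = 0.0435) or SR9011 replicate 2 (-0.21, limma adjusted p = 0.0307). With CLK8 none was called, against 7.97% of all genes (4.58% higher, 3.39% lower), while 3 of 6 had an unadjusted limma p under 0.05: Nr1d1 (-0.36), Nr1d2 (-0.39) and Nfil3 (-0.27), with limma adjusted p of 0.0595, 0.089 and 0.0601. Nr1d1 was called there without CLK8 replicate 2 (-0.42, limma adjusted p = 0.0316) or vehicle replicate 1 (-0.43, limma adjusted p = 0.0262), and Nfil3 without CLK8 replicate 3 (-0.33, limma adjusted p = 0.0211).

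Of 11 clock genes that CLOCK and BMAL1 drive through E-boxes, all tested, 1 rose and 6 fell with TGFb against vehicle, beside 20.5% and 34.4% of all genes (median log2 -0.28, against -0.05 over all genes). Dbp, which codes for a PAR bZIP activator, had 2.33, 2.78 and 2.34 FPKM with TGFb, against 7.13, 8.97 and 7.40 FPKM with vehicle (log2 -1.34, limma adjusted p = 5.73e-11). Its relative Tef fell by 0.56 on the log2 scale (limma adjusted p = 6.29e-10). Dbp lay at 9.55, 9.13 and 9.62 FPKM with SB431542 and TGFb, above TGFb (1.58, limma adjusted p = 2.19e-12), and Tef rose by 0.71. With SB431542 against vehicle, 3 of 11 rose and 3 fell, beside 11.9% and 5.05% of all genes, with Dbp at 0.60 and Tef at 0.33. With SB431542 and TGFb against TGFb, 7 rose and 2 fell, beside 38.3% and 21.4%.

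With SR9011 against vehicle, 5 of the 11 E-box genes rose and 1 fell, beside 40.7% and 28.3% of all genes, so the share that rose was near that of all genes. Without SR9011 replicate 1, 6 rose and 1 fell. Per1, a repressor of CLOCK and BMAL1, had 17.4, 16.6 and 16.8 FPKM with SR9011, against 7.10, 8.11 and 7.74 FPKM with vehicle (log2 1.05, limma adjusted p = 4.17e-13), and Hlf, a further PAR bZIP gene, rose by 0.85. Under TGFb, SR9011 raised 6 and lowered 2, beside 36.8% and 24%, with Per1 at 1.21 and Hlf at 1.82. With CLK8 against vehicle, 3 rose and 4 fell, beside 30.3% and 13.6%. Ciart, whose product represses CLOCK and BMAL1, had 3.51, 5.57 and 3.34 FPKM with CLK8, against 9.09, 9.97 and 9.74 FPKM with vehicle (log2 -1.07, limma adjusted p = 4.02e-06), and Per2 fell by 0.42. Under TGFb, CLK8 raised 3 and lowered 5, beside 27.7% and 13.3%, with Hlf at 0.89 and Per2 at -0.35.

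**Figure D5:**
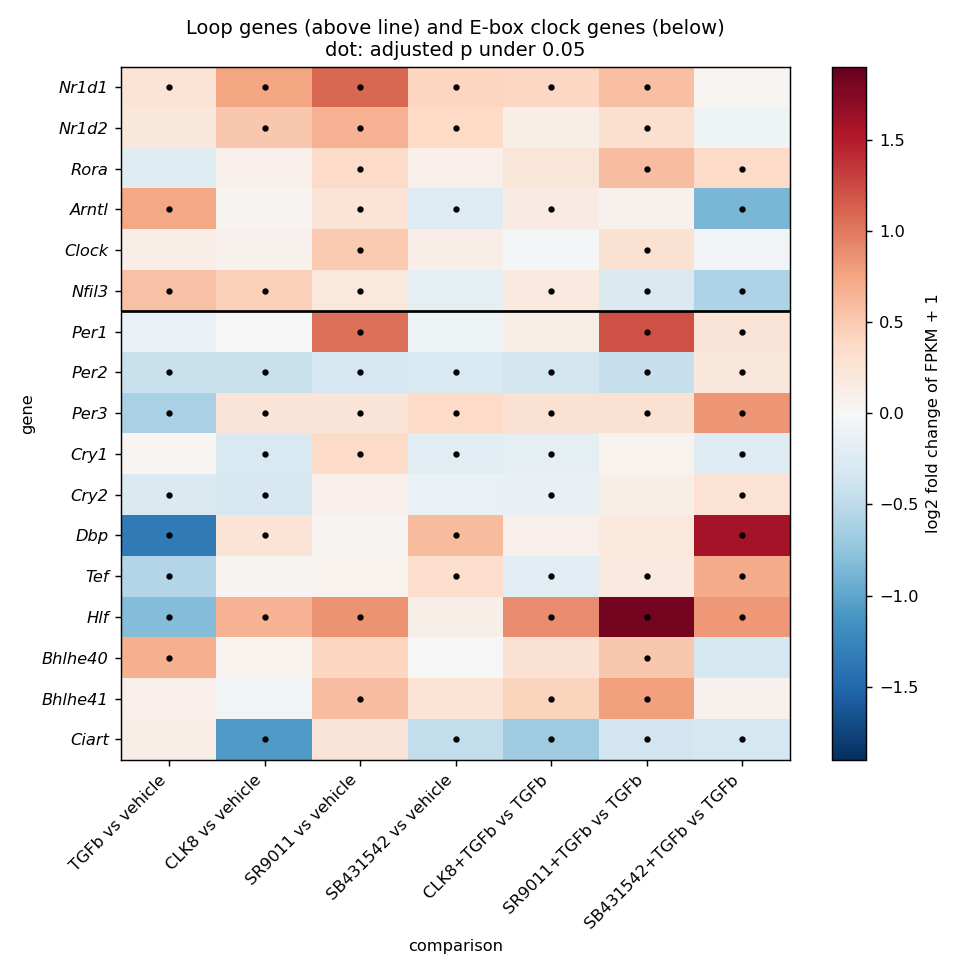
Log2 fold change of FPKM + 1 (colour) in 7 comparisons for the 6 tested loop genes, above the line, and 11 E-box clock genes, below it; a dot marks a limma adjusted p under 0.05. TGFb against vehicle shows Arntl and Nfil3 higher, with the E-box genes Dbp, Hlf, Per3 and Tef lower and Bhlhe40 higher (0.68). SR9011 shows Nr1d1 and Per1 higher, and CLK8 shows Ciart lower.

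Of 6 genes of the corepressor through which REV-ERB acts, limma called 0 with CLK8 against vehicle, beside 43.9% of all genes. Of these 6, 1 had an unadjusted limma p under 0.05. With SR9011 3 rose and 1 fell, with and without SR9011 replicate 1 and beside 40.7% and 28.3% of all genes, with Ncor1 at 0.42 (limma adjusted p = 3.35e-06) and Tbl1xr1 at -0.46 (limma adjusted p = 1.21e-06). With TGFb the deacetylase gene Hdac3 fell by 0.12 on the log2 scale (limma adjusted p = 0.0128), and with SB431542 and TGFb against TGFb it rose by 0.16 (limma adjusted p = 0.00156). Under TGFb, SR9011 raised 2 and lowered 1 (Ncor1 0.40, Gps2 0.41), beside 36.8% and 24%, and CLK8 raised 1 (Gps2 0.34), beside 27.7%.

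Among 9 partners of the CLOCK and BMAL1 dimer, 4 rose and 1 fell with SR9011, beside 40.7% and 28.3% of all genes. Without SR9011 replicate 1, 7 rose and 1 fell, beside 41.7% and 27.9%. With CLK8 5 rose, beside 30.3%. Arntl2, the gene of the BMAL1 relative BMAL2, averaged 2.91 FPKM with CLK8, against 1.98 FPKM with vehicle (log2 0.39, limma adjusted p = 0.000694), and the deacetylase gene Sirt1 rose by 0.59 on the log2 scale. Ddb1, a ubiquitin ligase subunit, fell with SR9011 (-0.26, limma adjusted p = 9.09e-06) while its partner Cul4a rose (0.23). TGFb raised 2 (Ddb1 0.21, Sirt1 0.38), beside 20.5%, and SB431542 raised 1 and lowered 1 (Sirt1 0.27, Ddb1 -0.13), beside 11.9% and 5.05%. Under TGFb, SR9011 raised 5 and lowered 1 (Arntl2 0.34, Ddb1 -0.27), beside 36.8% and 24%, CLK8 raised 3 (Arntl2 0.36, Ep300 0.21), beside 27.7%, and SB431542 lowered 2 (Ddb1 -0.27, Sirt1 -0.25), beside 21.4%.

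Of 11 tested kinase and ubiquitin ligase genes that act on clock proteins, TGFb raised 3 and lowered 2, beside 20.5% and 34.4% of all genes. Fbxw7, which codes for a ligase adaptor known to mark REV-ERBalpha for degradation, averaged 8.9 FPKM with TGFb, against 3.73 FPKM with vehicle (log2 1.07, limma adjusted p = 2.64e-12), and Siah2, a ligase gene with a like role, rose by 0.39 (limma adjusted p = 1.34e-06). SB431542 with TGFb had 3.63 FPKM of Fbxw7, against 8.9 FPKM with TGFb (-1.1, limma adjusted p = 1.16e-12), and Siah2 fell by 0.33, with 2 of the 11 raised and 3 lowered, beside 38.3% and 21.4%. SR9011 against vehicle raised 7 and lowered 1 (8 and 1 without SR9011 replicate 1), beside 40.7% and 28.3%, with Cdk1 at -0.62 and Siah2 at 0.41. Under TGFb it raised 4 and lowered 1, beside 36.8% and 24% and so near the share of all genes that rose, with Cdk1 at -0.30 and Csnk1e at 0.20. CLK8 raised 3 against vehicle (Mycbp2 0.40, Csnk1d 0.12), beside 30.3%, and 2 under TGFb (Csnk1d 0.13, Fbxw7 0.17), beside 27.7%. SB431542 against vehicle raised 1 and lowered 1 (Csnk1d 0.17, Siah2 -0.16), beside 11.9% and 5.05%.

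Of 6 genes outside the clock that other work has reported as repressed by REV-ERB, 5 were tested. Of these, 3 are described, chosen with earlier results of these data known, and the others are not reported here. The 3 described genes were lower with SR9011 than with vehicle. Since they were chosen so, this cannot be read against the 28.3% of all tested genes that were lower. Ccl2, a monocyte chemokine gene, had 16.1, 14.2 and 19.0 FPKM with SR9011, against 179, 235 and 208 FPKM with vehicle (log2 -3.58, limma adjusted p = 1.01e-13). The gelatinase gene Mmp9 (-1.37, limma adjusted p = 6.71e-13) and the cytokine gene Il6 (-1.26, limma adjusted p = 1.19e-11) fell as well. Both were at low levels, Mmp9 at 0.05 to 0.08 FPKM with SR9011 and 1.53 to 1.89 FPKM with vehicle. Il6 had 0.09 to 0.25 FPKM with SR9011 and 1.57 to 2.1 FPKM with vehicle. The added 1 FPKM limits their log2 values, which are not on a par with that of Ccl2. With CLK8 against vehicle, Ccl2 (-1.96, limma adjusted p = 5.22e-09) and Mmp9 (-0.75, limma adjusted p = 8.57e-08) fell and Il6 rose (0.64, limma adjusted p = 2.77e-06). Under TGFb, SR9011 lowered Mmp9 (-2.41), Il6 (-2.08) and Ccl2 (-2.55), and CLK8 lowered Mmp9 (-0.93) and Ccl2 (-1.48). Of all genes 24% and 13.3% fell there, with the same limit from the choice of genes. TGFb against vehicle raised Mmp9 (1.16) and Il6 (1.06) and lowered Ccl2 (-0.62). SB431542 with TGFb against TGFb lowered Mmp9 (-1.02) and Il6 (-0.87) and raised Ccl2 (0.50).

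Nr1d1 was the member whose log2 difference from vehicle reached 1 in size, and the genes with the most similar 7 differences from vehicle were Lactb2, Abhd5 and Mcur1, at a root mean square distance of 0.10, 0.13 and 0.14 on the log2 scale over the 7 treated groups. Nr1d2 lay at 0.26 from Nr1d1, Clock at 0.45, Nfil3 at 0.49, Rora at 0.53 and Arntl at 0.54. All these differences share the vehicle libraries.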

How the data were processed

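RNA-seq of 24 libraries was used as deposited. The table made by the authors holds FPKM with 2 decimals, named so in its file name. Per the submitters' processing notes, HISAT2 2.0.4, Bowtie2 2.2.5, RSEM and DESeq2 were used with mm10. Per the labels' protocols RNA was taken with 1 of 2 kits, chosen by its amount, and no label ties a kit to a sample. Of 16620 lines, those of the 8 identifiers on 2 lines each were left out. All 24 columns were matched to samples by library name. Symbols and positions are from GENCODE M21 (GRCm38), and 43 identifiers had no symbol.

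The 11297 genes that reached 1 FPKM in 3 or more libraries entered limma 3.58.1 (R 4.3.3; trend and robust moderation) as log2(FPKM + 1), with all 8 groups in 1 model with 16 residual degrees of freedom. P values are 2-sided. The median SE was 0.0639 for a difference of 2 groups and 0.0904 for an interaction. The fit was tested on simulated data. Triplicates are biological per the labels. Read depth is unknown.

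The 7 genes and the other gene lists were chosen with earlier results of these data known. All 7 are named throughout. From each list the called genes with the 2 smallest adjusted p of a comparison are named, and further ones were chosen after their values were seen. Some genes of these lists are not reported here.

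Alternatives were pseudocounts of 0.1 and 0.5, no filter, FPKM of at least 5, TPM, quantile normalization, the omission of 1 library at a time, a replicate block, and a fit restricted to the groups being compared. Refitting the lists for SR9011 without its replicate 1 was chosen after seeing the data. Among 28 pairs of groups, 2 had same-numbered samples whose deviations correlated above 0.1 for each of the 3 numbers. Of these, SB431542+TGFb with SB431542 (0.415, 0.208 and 0.117) was compared. There the numbers were read as a possible pairing, on these correlations alone. Python 3.11.15 with pandas 2.3.3 and matplotlib 3.10.9 made tables and figures.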

Additional observations from a re-analysis of the deposited data

Results flagged for a closer look

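Interactions that passed the threshold mark members whose TGFb effect differed between compound-treated and vehicle-treated cells. With SB431542 these were Arntl (-0.62), Nr1d2 (-0.46), Nfil3 (-0.41) and Nr1d1 (-0.36), on the log2 scale. For Arntl the TGFb effect was 0.12 with SB431542 and 0.74 with vehicle, and for Nfil3 it was 0.15 and 0.56. For Nr1d2 it was -0.24 with SB431542 and 0.21 with vehicle, and for Nr1d1 -0.10 and 0.25. With SR9011 they were Nr1d1 (-0.51) and Nfil3 (-0.49). The TGFb effect on Nr1d1 was -0.26 with SR9011 and 0.25 with vehicle, and on Nfil3 it was 0.07 and 0.56. Single libraries were not tested as outliers within these groups of 3.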

How the results depend on the processing

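No member's direction turned where it was called, in 1187 recomputed log2 fold changes over all the alternatives; 25 lost their call and 29 gained one. Of 400 recomputed counts of called members or genes, 383 stayed within 1.5 times. Called members numbered 5 for TGFb against vehicle in the compared groups alone (3 in the main analysis), 3 for SR9011+TGFb against TGFb with TPM (5), 1 for CLK8+TGFb against TGFb after quantile normalization (3), and 1 for SR9011+TGFb against SR9011 with TPM and after quantile normalization (2). For the interaction with SR9011 they numbered 4 after quantile normalization (2), and for that with CLK8 (0) 1 after quantile normalization and 2 in the compared groups alone. With the replicate number as a block, the interaction with CLK8 had 1 called member, Nr1d1 (-0.36, limma adjusted p = 0.0248), and no other count moved by over 1.5 times. For SB431542+TGFb against SB431542, where the deviations of same-numbered samples correlated, 0 members and 547 genes were called with the block (493 without). Leaving out 1 library gave 1 to 3 members for SR9011+TGFb against SR9011, 2 to 4 for the interaction with SR9011, 0 to 1 for that with CLK8, and 199 to 513 genes for SB431542+TGFb against SB431542. FPKM of at least 5 left Rora untested, by construction. Another scaling moved the split of all called genes into higher and lower by over 10 points in 11 of 13 comparisons, for example to 3004 higher and 2885 lower with TPM for TGFb against vehicle (2311 and 3888), and the median of all genes by at most 0.09 log2. Low levels limit Rora and Npas2 most.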
